A study of Mus musculus with 2 samples.

Results

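The genes of the major histocompatibility complex (MHC) and of antigen processing were compared between CD4 T cells of mice given a tolerizing nanoparticle and CD4 T cells of untreated mice. The members were the gene rows whose symbol begins with H2-, the name of the mouse MHC, together with B2m, Tap1, Tap2, Tapbp, Tapbpl, Nlrc5, Ciita, Cd74, Erap1 and Calr. This gave 55 of the 54532 rows of the count table, of which 40 belong to the class I pathway, 14 to the class II pathway and 1, H2-Ke6, lies in the region without encoding an MHC molecule. By position 48 members are on chromosome 17 and 7 elsewhere.

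The cells of both groups were BDC-2.5 T cells, which carry a transgenic receptor that recognises a beta cell antigen on class II molecules. They had been activated and transferred into NOD.scid recipients, which have no T or B cells of their own but keep dendritic cells and macrophages. In the 2.5HIP-PLG group the recipients received 1.75 mg of poly(lactide-co-glycolide) particles carrying a hybrid insulin peptide intravenously 1 day after transfer, and the untreated group received none. From spleen and lymph nodes, CD4-positive cells negative for the Foxp3 reporter GFP were sorted 6 days after transfer, with 4 mice pooled per library and 1 library per group, so nothing here can be set against the spread between replicates, and p-values are not given. Because the injection stands in the protocols of both libraries, the groups were taken from the treatment label. The labels give neither age nor sex of the mice.

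Library totals were 22580648 counts for 2.5HIP-PLG cells and 26036623 for untreated cells, and levels are given as CPM, counts scaled to parts of 1e6 of these totals. A single read corresponded to 0.0443 CPM in 2.5HIP-PLG cells and 0.0384 CPM in untreated cells, and where a gene has 0 counts its level may be as high as 0.133 CPM in 2.5HIP-PLG cells or 0.115 CPM in untreated cells. The CD4 T cell markers Cd4, Cd3e, Cd3d, Cd3g, Cd2 and Lck together had 123274 counts in 2.5HIP-PLG cells and 119306 in untreated cells, so these defining markers were abundant in both. Their summed ratio was 1.19 (95% interval 1.18 to 1.201). Each ratio is the 2.5HIP-PLG level over the untreated level, with an exact binomial 95% interval that covers counting error only, as do all intervals and floors here. A gene with at least 20 counts over both libraries is called measured, and it is called higher at a ratio of 1.5 or more, and lower at the inverse of that or less, if the interval leaves out 1.

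MHC class I molecules sit on nearly all nucleated cells and hold peptides made inside the cell, cut by the proteasome, pumped into the endoplasmic reticulum by the TAP transporter and loaded there with the help of chaperones. A heavy chain encoded in the H2 complex pairs with the invariant light chain beta-2 microglobulin. Class II molecules are made mainly by dendritic cells, macrophages and B cells, hold peptides from engulfed material and are the ligands of the CD4 T cell receptor. Mouse T cells are known to make abundant class I and little class II of their own, and interferon gamma raises both pathways, class I through NLRC5 and class II through CIITA.

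Class I as a whole stood at the same level in both libraries, and the summed class II level was lower after 2.5HIP-PLG, by less than the size for a call. The 40 class I rows together took 10917 CPM in 2.5HIP-PLG cells and 10912 CPM in untreated cells, a ratio of 1.0005 (0.995 to 1.006) that moved between 0.9896 and 1.0096, to either side of 1, with other scalings. Within this sum the parts differed, with the heavy chain rows at a ratio of 0.933 and the loading machinery at 1.13. The 14 class II rows took 91.98 CPM in 2.5HIP-PLG cells, with an exact Poisson 95% interval of 88.1 to 96.0, and 113.4 CPM in untreated cells (109.3 to 117.5), a ratio of 0.811 (0.767 to 0.858). The class II ratio was thus 0.811 of the class I ratio. Without Cd74, its most abundant row, the class II ratio was 0.846 (0.780 to 0.917). Of all class I and class II counts, class II made up 0.836% in 2.5HIP-PLG cells (0.800 to 0.872, exact binomial) and 1.03% in untreated cells (0.992 to 1.07). In RNA of a sorted population, a difference in the number of cells of a type and a difference in RNA per cell cannot be told apart.

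Few single members passed the rule for a call. Of the 55 members 36 were measured, and of these 3 were lower, 0 higher and 33 neither. Among all 13902 measured rows, 9.7% were lower, 5.15% were higher and 14.8% were called in either direction, so the share of called members was near or below that of all genes. The 3 called members, H2-Q10, H2-T3 and H2-Q5, were all class I rows outside the classical pair H2-K1 and H2-D1, and all were less abundant than that pair. Of the other 19 members 13 had 0 counts in both libraries and the remaining 6 had at most 9 counts in either. The median log2 ratio was -0.04 over the 26 measured class I rows and -0.36 over the 9 measured class II rows, beside -0.01 over all measured rows. In total 24 of the 36 measured members (66.7%) lay within 1.2-fold of equality, against 57.7% of all measured rows. Among rows with at least 1000 counts the shares were 78.3% of 23 members and 75.2% of all 7022 such rows.

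**Figure D1:**
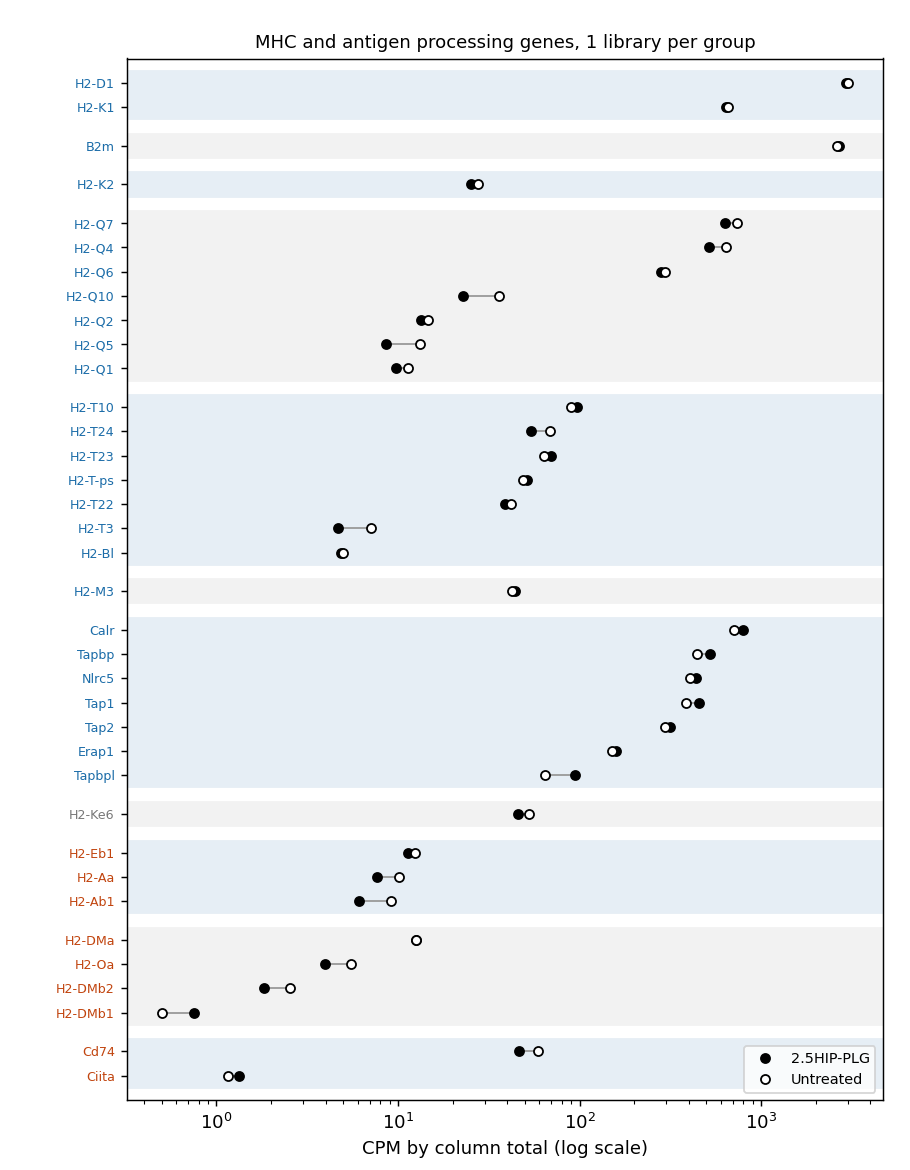
Levels of the 36 measured members in CPM on a log axis, with filled points for the 2.5HIP-PLG library and open points for the untreated library, grouped by role and coloured by class (blue class I, red class II, grey H2-Ke6). Class I members lie between 4.65 and 3028 CPM, and class II members between 0.499 and 59.2 CPM.

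Promoter windows show what class I and class II genes have in common ahead of their start sites. Class I and class II promoters are known to share an X box and a Y box, bound by a complex to which NLRC5 or CIITA is recruited, and class I promoters also have an NF-kappaB site called enhancer A and an interferon-stimulated response element (ISRE). The windows run from 250 bases before to 50 after a RefSeq start site (GRCm38.p6), a C57BL/6J reference sequence and not that of NOD mice, and 37 members matched an entry. The sequences below are those of the classical heavy chains, the light chain, the lower genes H2-Q10 and H2-T3, and a class II chain. Capitals mark matches, on either strand, to the Y box core CCAAT, the X2 core TGACG, the enhancer A core GGGATTCCC, the ISRE core TTTCNNTTT or the interferon gamma activated site letters TTCNNNGAA.
H2-K1, chr17:34000298-34000597, minus strand: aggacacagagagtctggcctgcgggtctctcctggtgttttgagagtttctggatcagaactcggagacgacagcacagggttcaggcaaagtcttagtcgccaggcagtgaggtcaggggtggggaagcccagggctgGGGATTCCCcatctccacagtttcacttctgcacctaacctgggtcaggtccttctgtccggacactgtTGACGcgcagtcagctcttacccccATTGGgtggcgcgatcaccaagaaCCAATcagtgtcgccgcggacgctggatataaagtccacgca
H2-D1, chr17:35262844-35263143, plus strand: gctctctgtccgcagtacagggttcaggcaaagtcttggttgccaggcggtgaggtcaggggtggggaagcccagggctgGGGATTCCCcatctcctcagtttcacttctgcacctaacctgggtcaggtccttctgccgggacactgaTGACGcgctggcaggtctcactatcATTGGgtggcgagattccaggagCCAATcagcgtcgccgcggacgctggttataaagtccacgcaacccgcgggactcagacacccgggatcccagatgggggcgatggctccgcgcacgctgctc
B2m, chr2:122147437-122147736, plus strand: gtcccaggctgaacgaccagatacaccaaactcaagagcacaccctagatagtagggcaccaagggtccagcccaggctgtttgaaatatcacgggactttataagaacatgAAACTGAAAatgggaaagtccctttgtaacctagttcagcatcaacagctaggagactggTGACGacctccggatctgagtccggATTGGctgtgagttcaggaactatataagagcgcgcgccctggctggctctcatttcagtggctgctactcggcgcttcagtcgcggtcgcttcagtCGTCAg
H2-Q10, chr17:35469839-35470138, plus strand: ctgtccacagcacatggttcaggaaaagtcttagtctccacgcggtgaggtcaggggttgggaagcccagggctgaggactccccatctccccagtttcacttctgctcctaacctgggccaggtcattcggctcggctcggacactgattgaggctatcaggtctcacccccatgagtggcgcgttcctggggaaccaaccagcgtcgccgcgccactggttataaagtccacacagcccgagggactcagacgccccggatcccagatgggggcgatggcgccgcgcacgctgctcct
H2-T3, chr17:36190102-36190401, minus strand: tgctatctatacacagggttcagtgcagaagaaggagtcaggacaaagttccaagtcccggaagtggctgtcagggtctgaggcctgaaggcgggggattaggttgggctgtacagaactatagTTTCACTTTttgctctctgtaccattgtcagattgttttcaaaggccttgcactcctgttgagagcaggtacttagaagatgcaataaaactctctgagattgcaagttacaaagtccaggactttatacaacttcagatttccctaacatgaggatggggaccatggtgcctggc
H2-Aa, chr17:34287774-34288073, minus strand: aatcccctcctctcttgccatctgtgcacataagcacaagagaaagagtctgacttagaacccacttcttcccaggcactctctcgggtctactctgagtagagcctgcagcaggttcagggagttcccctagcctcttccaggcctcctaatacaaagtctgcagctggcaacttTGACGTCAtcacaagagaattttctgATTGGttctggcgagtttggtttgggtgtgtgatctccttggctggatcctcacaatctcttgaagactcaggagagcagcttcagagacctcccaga
The only overlap between matches in these windows was in H2-Aa, where the X2 core and its reverse complement share letters.

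H2-K1 and H2-D1 had 4 matches each, including the enhancer A letters, and B2m had 4 including the ISRE core. The windows of H2-K1, H2-D1 and H2-Q10 hold the letters tttcacttc, which miss the ISRE core only in the last letter and are not marked. The ISRE matches given here therefore depend on the spelling searched, and an unmarked window may still hold a close variant. H2-T3 had 1 match, to the ISRE core, and H2-Q10 had 0 matches to any of the 5 motifs, as had the windows of H2-DMa and H2-M5, so that 3 member windows in all had none. The H2-Aa window held the Y box core and the X2 core but neither the enhancer A nor the ISRE letters. With 1 window per gene, the Y box core was found in 24 of 28 class I windows and 7 of 8 class II windows, against 37.4% of all 32851 windows in the table. The enhancer A letters were in 4 of 28 class I windows, 0 of 8 class II windows and 0.353% of all windows. The X2 core was in 13 of 28 and 1 of 8 in that order (20.8% of all windows), the ISRE core in 6 and 1 (10.6%) and the interferon gamma activated site in 2 and 1 (8.3%). A match describes letters only, and neither a match nor its absence says anything about binding of a factor.

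The classical class I heavy chains differed by less than 5% between the libraries. H2-D1, the D locus heavy chain that presents peptide to CD8 T cells, had 66121 counts in 2.5HIP-PLG cells and 78834 in untreated cells. Scaled, these were 2928 and 3028 CPM, a ratio of 0.967 (0.957 to 0.977). H2-K1, the K locus heavy chain, had 14474 and 17056 counts in the same order, a ratio of 0.979 with an interval of 0.957 to 1.0. B2m, the light chain, had 60999 counts in 2.5HIP-PLG cells and 68425 in untreated cells, a ratio of 1.03 (1.02 to 1.04). All 3 were neither higher nor lower by the rule.

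Per length of annotated exons, B2m was the most abundant member, with 3141 CPM per kb in 2.5HIP-PLG cells and 3056 in untreated cells. H2-D1 was next, with 1135 and 1174 CPM per kb, and Calr had 274.7 and 245.3. H2-K1 followed in 2.5HIP-PLG cells with 218.2 CPM per kb, ahead of H2-Q4 with 198.3, whereas in untreated cells H2-K1 had 223.0 and H2-Q4 248.3 CPM per kb. The H2-D1 level was 5.20 times the H2-K1 level in 2.5HIP-PLG cells and 5.27 times in untreated cells. The order of these levels depends on how reads of NOD alleles were assigned where these differ from the C57BL/6J sequence of the GRCm38 reference. Such differences need not be alike for H2-K1 and H2-D1, and their part in these levels was not tested. H2-K2, a pseudogene beside H2-K1, had 573 and 718 counts (0.920, 0.823 to 1.03).

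Heavy chains of the Q region had a lower summed level after 2.5HIP-PLG. These are non-classical class I genes, among them H2-Q6 and H2-Q7, which encode Qa-2 antigens, and H2-Q10, known as a secreted molecule of the liver. All 7 measured Q genes had ratios below 1, and 5 of the 7 had intervals below 1, against 26.3% of all measured rows. That share is not matched for depth, and intervals narrow as counts rise. The summed level of the Q genes was 1479 CPM in 2.5HIP-PLG cells and 1749 CPM in untreated cells, a ratio of 0.846 (0.834 to 0.858). The 7 ratios stayed below 1 with each of the other 3 scalings tried. These scalings differ little from column totals, and the class I sum ratio moved only between 0.9896 and 1.0096 with them. None of the 7 was close enough to 1 for such a shift to carry it across.

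Within the Q region the lowest ratios were those of H2-Q10 and H2-Q5, which were less abundant than H2-Q4, H2-Q7 and H2-Q6. H2-Q10 had 518 counts in 2.5HIP-PLG cells and 941 in untreated cells, or 22.9 and 36.1 CPM, a ratio of 0.635 (0.569 to 0.707). H2-Q5, annotated as a polymorphic pseudogene, had 194 and 344 counts (0.650, 0.543 to 0.778). Both were called lower. The 3 abundant Q genes were closer to equality. H2-Q4 had 11623 counts in 2.5HIP-PLG cells and 16782 in untreated cells (0.799, 0.780 to 0.818). H2-Q7 had 14230 and 19144 counts (0.857, 0.839 to 0.876), and H2-Q6 had 6317 and 7655 (0.952, 0.920 to 0.984). The intervals of H2-Q4, H2-Q7 and H2-Q6 did not overlap one another. H2-Q1, with 220 and 294 counts (0.863, 0.721 to 1.03), and H2-Q2, with 301 and 379 (0.916, 0.785 to 1.07), had intervals that held 1.

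These rows share sequence, which limits how far one can be told from the next. Of the 50-base stretches in the annotated transcripts of H2-Q5, 36.5% also occur in transcripts of another gene, most of all H2-Q7 with 25.5%. For H2-Q6 the share was 35.0%, for H2-Q4 36.4%, for H2-Q7 26.5% and for H2-Q10 19.1%, the last with H2-Q7 as its main partner. The deposited counts of all 7 measured Q genes were not whole, as when a read is divided among genes. Taken as one sum, H2-Q5, H2-Q6 and H2-Q7 had a ratio of 0.881 (0.865 to 0.897). The part of such sharing in the H2-Q5 and H2-Q10 calls, and in the differences among H2-Q4, H2-Q7 and H2-Q6, was not tested.

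The T region genes, further non-classical heavy chains, went in both directions and held the third called gene. H2-T3, which encodes the thymus leukemia antigen, a ligand of CD8 alpha homodimers, had 105 counts in 2.5HIP-PLG cells and 185 in untreated cells (0.654, 0.510 to 0.836) and was called lower. It was the only called member whose counts were whole in both libraries, and just 0.926% of its 50-base stretches occur in another gene. H2-T24 had 1213 and 1788 counts (0.782, 0.727 to 0.842), short of the size for a call. H2-T23, which encodes Qa-1, the molecule that shows a leader peptide of class I to the CD94 and NKG2 receptors, had 1569 and 1653 counts (1.09, 1.02 to 1.17). H2-T10, with 2177 and 2348 counts (1.07, 1.01 to 1.13), and H2-T22, with 878 and 1090 (0.929, 0.849 to 1.02), are known as ligands of gamma delta T cell receptors. They share 31.7% of the 50-base stretches of H2-T10, and their sum had a ratio of 1.02 (0.976 to 1.08). H2-T-ps, with 1164 and 1264 counts, and H2-Bl, with 109 and 130, had intervals that held 1. The 7 T region rows summed to a ratio of 0.984 (0.953 to 1.02).

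In the M region a single gene of 14 was measured. H2-M3, which presents peptides with N-formyl methionine as bacteria and mitochondria make them, had 1000 counts in 2.5HIP-PLG cells and 1109 in untreated cells (1.04, 0.954 to 1.13). Of the other M region rows 10 were at 0 in both libraries, namely H2-M1, H2-M9, H2-M11, H2-M6-ps, H2-M10.1, H2-M10.2, H2-M10.3, H2-M10.4, H2-M10.6 and H2-M10.5-ps1, and H2-M10.5 had 0 counts in 2.5HIP-PLG cells and 1 in untreated cells. H2-M10 genes are known from vomeronasal neurons. Over all 18 measured class I heavy chain rows, 14 had ratios below 1, 8 of them with intervals below 1, and 2 had intervals above 1. Their median log2 ratio was -0.11 and their summed ratio 0.933 (0.926 to 0.9403).

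The class I loading machinery had a slightly higher summed level after 2.5HIP-PLG. All 7 genes of this group had ratios and intervals above 1, although none reached 1.5, and 24.3% of all measured rows had intervals above 1. That share is not matched for depth. Intervals narrow as counts rise, and these 7 genes are deeper than many measured rows. Together the 7 genes took 2777 CPM in 2.5HIP-PLG cells and 2457 CPM in untreated cells, a ratio of 1.13 (1.12 to 1.14), with a median log2 ratio of 0.16. With upper quartile scaling, which moves ratios little, all 7 ratios stayed above 1 and 6 of the 7 intervals did.

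Among the machinery genes, Tapbpl had the highest ratio. It encodes TAPBPR, a peptide editor related to tapasin, and had 2131 counts in 2.5HIP-PLG cells and 1672 in untreated cells (1.47, 1.38 to 1.57). Tapbp, which encodes tapasin, the bridge between TAP and the heavy chain, had 11873 and 11563 counts (1.18, 1.15 to 1.22). For the TAP subunits, Tap1 had 10326 counts in 2.5HIP-PLG cells and 10058 in untreated cells (1.18, 1.15 to 1.22), and Tap2 had 7093 and 7708 (1.06, 1.03 to 1.10). The TAP subunits work as a pair, and their intervals did not overlap. Calr, the chaperone calreticulin, had 17862 and 18391 counts (1.12, 1.10 to 1.14). Erap1, the aminopeptidase that trims peptides, had 3589 and 3951 (1.05, 1.001 to 1.10). Nlrc5, the class I transactivator, had 9842 counts in 2.5HIP-PLG cells and 10625 in untreated cells (1.07, 1.04 to 1.10). Of the transcript of Tapbp 20.3% of the 50-base stretches are also in Gm19412, which overlaps it on the other strand, but Gm19412 had only 12 and 17 counts. Erap1 overlaps Cast on the other strand, and Cast had 5649 and 5415 counts (1.203, 1.16 to 1.25).

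**Figure D2:**
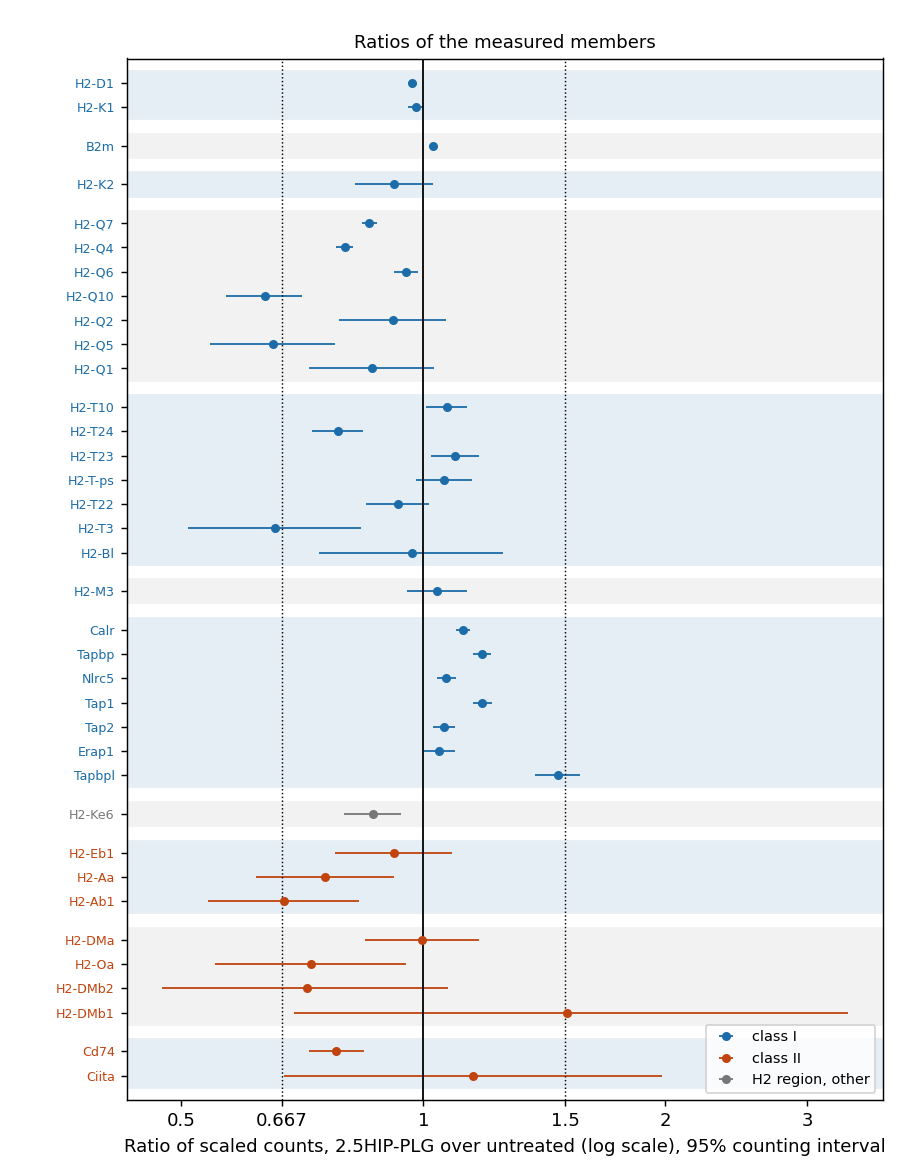
Ratio of scaled counts, 2.5HIP-PLG over untreated, for the 36 measured members on a log axis with 95% counting intervals. The solid line marks equality and dotted lines a 1.5-fold difference, and colours give the class. The 7 machinery genes from Calr to Tapbpl lie right of the solid line, the 7 Q region genes lie left of it, and the 3 called genes are H2-Q10, H2-Q5 and H2-T3.

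Other genes of class I loading, outside the members, had small ratios too. This list held the chaperones Pdia3 and Canx, the immunoproteasome subunits Psmb8, Psmb9 and Psmb10, the proteasome activators Psme1 and Psme2, and the peptidases Npepps, Lnpep and Thop1. None of the 10 was called (0 higher, 0 lower), against 14.8% of all measured rows called in either direction. The median log2 ratio of the 10 was 0.09 and their summed ratio 1.05 (1.04 to 1.06). Pdia3 had 13895 counts in 2.5HIP-PLG cells and 15584 in untreated cells (1.03, 1.005 to 1.05). Psmb8 had 9695 and 10668 counts (1.05, 1.02 to 1.08), and Canx had 8272 and 8996 (1.06, 1.03 to 1.09).

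Class II transcripts were present at a low level in both libraries. H2-Ab1, the beta chain of I-A, the only class II molecule that NOD mice display, had 138 counts in 2.5HIP-PLG cells and 237 in untreated cells. In CPM these were 6.11 and 9.10, a ratio of 0.671 (0.540 to 0.832), just short of the size for a call. H2-Aa, the alpha chain of I-A, had 173 and 264 counts (0.756, 0.620 to 0.919). H2-Eb1, the beta chain of I-E, had 256 and 321 counts, and its ratio of 0.920 had an interval of 0.777 to 1.09 that held 1. H2-Ea-ps, the alpha chain row of I-E, had 0 counts in both libraries, and H2-Eb2 had 2 and 9. The 5 chain rows summed to 569 counts in 2.5HIP-PLG cells and 831 in untreated cells, a ratio of 0.790 (0.708 to 0.879). Of the 9 measured class II rows 7 had whole counts in both libraries, and H2-Ab1, H2-Eb1 and Cd74 share no 50-base stretch with another gene.

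Cd74, the invariant chain that guards the class II groove until peptide loading, was the most abundant class II member and 1.28-fold lower (1.19 to 1.39) after 2.5HIP-PLG. It had 1042 counts in 2.5HIP-PLG cells and 1541 in untreated cells. Per exon length, Cd74 was at 11.6 times the H2-Ab1 level in 2.5HIP-PLG cells and 9.95 times in untreated cells, and B2m was at 1320 and 862.1 times that level in the same order. These multiples, too, depend on how reads of the NOD allele of H2-Ab1 were assigned, and this was not tested. Ciita, the master regulator of class II, had 30 counts in each library (1.15, 0.672 to 1.98), so at this depth its ratio is bounded only within that interval. Ciita overlaps Dexi on the opposite strand.

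The peptide exchange genes were scarce as well. H2-DMa, a chain of the DM molecule that swaps peptides on class II, had 282 counts in 2.5HIP-PLG cells and 326 in untreated cells (0.997, 0.847 to 1.17). It overlaps the abundant Brd2 on the opposite strand, which had 9280 and 11847 counts (0.903, 0.879 to 0.928), and the part of Brd2 reads in the H2-DMa counts was not tested. H2-DMb2 had 41 and 66 counts and H2-DMb1 17 and 13. These 2 beta chain copies share sequence (21.2% of the 50-base stretches of H2-DMb2), and neither interval excluded 1. Their sum of 58 and 79 counts had a ratio of 0.847 (0.593 to 1.203). H2-Oa, a chain of the DO molecule that restrains DM in B cells, had 90 and 143 counts (0.726, 0.551 to 0.951), and its partner H2-Ob had 6 and 2. The pseudogenes H2-Pa and H2-Pb had 0 counts in both. Over all 9 measured class II rows, 7 ratios were below 1, 4 intervals were below 1 and 0 were above. With TMM or DESeq2 scaling, H2-DMa moved to the other side of 1.

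Markers of antigen-presenting cells were also scarce, and they moved in different directions. The 8 dendritic cell markers summed to 284 counts in 2.5HIP-PLG cells and 621 in untreated cells, a ratio of 0.527 (0.457 to 0.608). Of 5 measured ones 2 were lower, the integrin Itgax with 108 and 320 counts (0.389, 0.310 to 0.486) and the transcription factor Batf3 with 38 and 83 (0.528, 0.350 to 0.784). Among all measured rows 9.7% were lower and 5.15% higher. Xcr1 had 66 counts in 2.5HIP-PLG cells and 110 in untreated cells, Zbtb46 had 54 and 80, and Siglech 8 and 19. The other markers of the list were not measured, with Flt3 at 8 and 7 counts, Cd209a at 2 and 1, and Clec9a at 0 and 1. The 8 macrophage and monocyte markers summed to 346 and 277 counts (1.44, 1.23 to 1.69), with 3 of 6 measured ones higher, Lyz2 (101 and 47 counts), Csf1r (50 and 27) and C1qa (34 and 20), while Cd68 had 107 and 96. The 5 B cell markers summed to 8 counts in 2.5HIP-PLG cells and 22 in untreated cells, and none was measured, with Cd79b at 5 and 12, Pax5 at 1 and 6, Cd79a at 2 and 3, and Ms4a1 at 0 in both. Itgax alone gave 320 of the 621 dendritic cell marker counts in untreated cells and 108 of the 284 in 2.5HIP-PLG cells. Whether these marker counts came from antigen-presenting cells or from the sorted T cells was not tested. The part of antigen-presenting cells in the class II counts was not tested either.

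**Figure D3:**
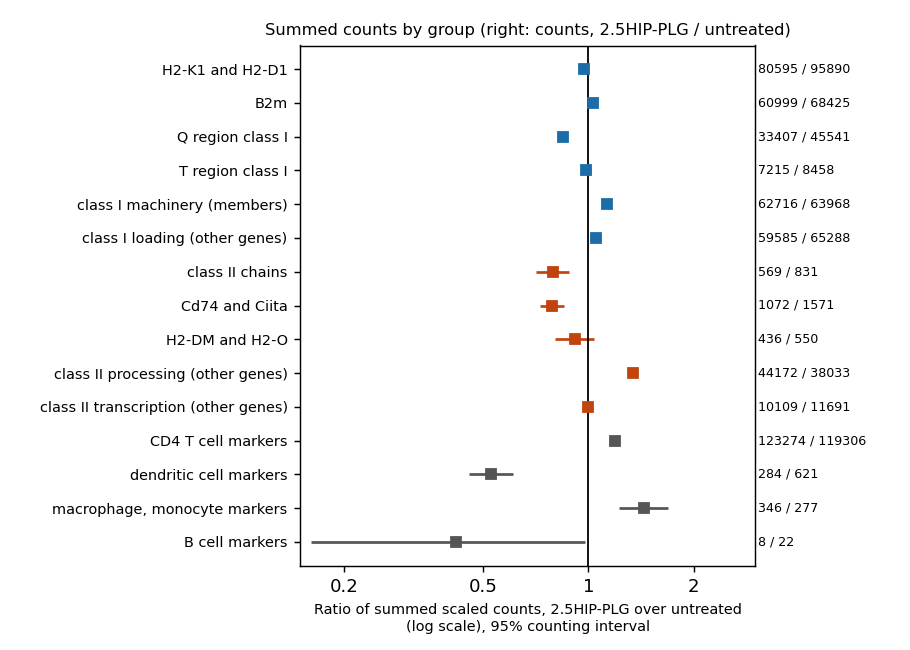
Ratio of summed scaled counts, 2.5HIP-PLG over untreated, on a log axis with 95% counting intervals, for groups of class I genes (blue), class II genes (red) and cell type markers (grey). The counts behind each ratio stand at the right, and the class II chains at 0.790 and the dendritic cell markers at 0.527 lie left of the line of equality while the class I machinery at 1.13 and the macrophage markers at 1.44 lie right of it.

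Among genes that serve class II outside the members, levels varied widely. The class II processing list of 9 genes held 1 higher and 0 lower ones, beside 5.15% higher and 9.7% lower among all measured rows. Its median log2 ratio was 0.02. The higher one was Ctsb, encoding the lysosomal protease cathepsin B, with 9683 counts in 2.5HIP-PLG cells and 7407 in untreated cells (1.51, 1.46 to 1.55). Ctsd, encoding cathepsin D, had 29138 and 24297 counts (1.38, 1.36 to 1.41). Ctss, encoding cathepsin S, which trims the invariant chain, had 2365 and 2683 (1.02, 0.961 to 1.08). Sppl2a, whose protease clears the last piece of the invariant chain, had 2184 and 2674 (0.942, 0.890 to 0.997). Scarcer proteases of the list were Lgmn, with 74 and 83 counts, and Ctsl, with 29 and 34. Of the 7 genes for subunits of the X and Y box complexes, 0 were called, against 14.8% of all measured rows. The median log2 ratio of these 7 was -0.04. Creb1 had 3062 counts in 2.5HIP-PLG cells and 3248 in untreated cells, Nfya 1890 and 2410, and Nfyc 1569 and 1855.

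The interferon gamma input to both pathways held 1 called gene of 8, beside 14.8% of all measured rows called in either direction. Ifngr1, the ligand-binding receptor chain, had 3485 counts in 2.5HIP-PLG cells and 7281 in untreated cells (0.552, 0.530 to 0.575) and was lower, while 0 of the 8 genes of the list were higher. Ifngr2, the signalling chain, had 49 and 77 counts (0.734, 0.502 to 1.06). Jak1 had 20568 and 26613 counts (0.891, 0.875 to 0.908), and Irf1, a transcription factor that acts on the ISRE, had 5601 and 5884 (1.10, 1.06 to 1.14). The list had a median log2 ratio of 0.04.

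A list of receptors that bind MHC molecules, or belong to families that do, held larger ratios. Of 15 listed genes 12 were measured. Of these 7 were higher, 1 was lower and 4 were neither, beside 5.15% higher and 9.7% lower among all measured rows. The median log2 ratio was 1.25, although part of this list was already known from these data to be higher. Lag3, which binds class II, had 5946 counts in 2.5HIP-PLG cells and 329 in untreated cells (20.8, 18.7 to 23.4). Cd4, the class II coreceptor, had 41743 and 39739 counts (1.21, 1.195 to 1.23). Klrc1, encoding NKG2A, had 1851 and 857 counts (2.49, 2.30 to 2.70), while Klrd1, encoding its partner CD94, was lower with 721 and 1351 (0.615, 0.561 to 0.674). Together these form the receptor for Qa-1, whose gene H2-T23 had a ratio of 1.09.

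The Klra genes of that list encode receptors of the Ly49 family, many but not all of which bind class I heavy chains of the host. Klra1 had 579 counts in 2.5HIP-PLG cells and 240 in untreated cells (2.78, 2.39 to 3.25). Klra9 had 159 and 24 counts (7.64, 4.95 to 12.3), Klra8 had 80 and 7 (13.2, 6.11 to 33.8), Klra7 had 49 and 6 (9.42, 4.03 to 26.9) and Klra4 had 52 and 26 (2.31, 1.41 to 3.85). The 5 Klra genes called were all higher, beside 5.15% of all measured rows. Their counts were not whole, and near-identical copies may share reads. Klra5 had 25 and 19 counts, Cd8b1 304 and 272, and Cd8a 0 and 9.

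Class I-like molecules outside the H2 rows were scarce. Of 9 listed genes 5 were measured, 2 were lower and 0 higher, and the median log2 ratio was -0.51. Among all measured rows 9.7% were lower and 5.15% higher. Fcgrt, the neonatal Fc receptor, which also pairs with B2m, had 60 counts in 2.5HIP-PLG cells and 163 in untreated cells (0.424, 0.310 to 0.574). Hfe, the class I-like regulator of iron uptake, had 12 and 34 (0.407, 0.192 to 0.806). Ulbp1 had 456 and 748 counts (0.703, 0.624 to 0.791), Cd1d1, which presents lipids to NKT cells, had 355 and 568 (0.721, 0.629 to 0.824), and Mr1, which presents vitamin metabolites, had 523 and 518 (1.16, 1.03 to 1.32). Azgp1 and Raet1e were at 0 in both.

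In gene order on chromosome 17, ratios above and below 1 stood side by side in the class II segment. Tap1 (chr17:34187553-34197225, plus strand) and Tap2 lie, among the measured members, between H2-DMb1 and H2-Ab1 (chr17:34257689-34269419, plus strand), all in GRCm38. Tap1 and Tap2 had ratios of 1.18 and 1.06. On one side H2-DMb1 had 1.51, with an interval of 0.690 to 3.38 that held 1, and on the other H2-Ab1 and H2-Aa had 0.671 and 0.756. In the Q segment all 7 measured neighbours, from H2-Q1 to H2-Q10 (chr17:35470089-35474563), were below 1. The T segment held values on both sides, with H2-T24 at 0.782 beside H2-T23 at 1.09.

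**Figure D4:**
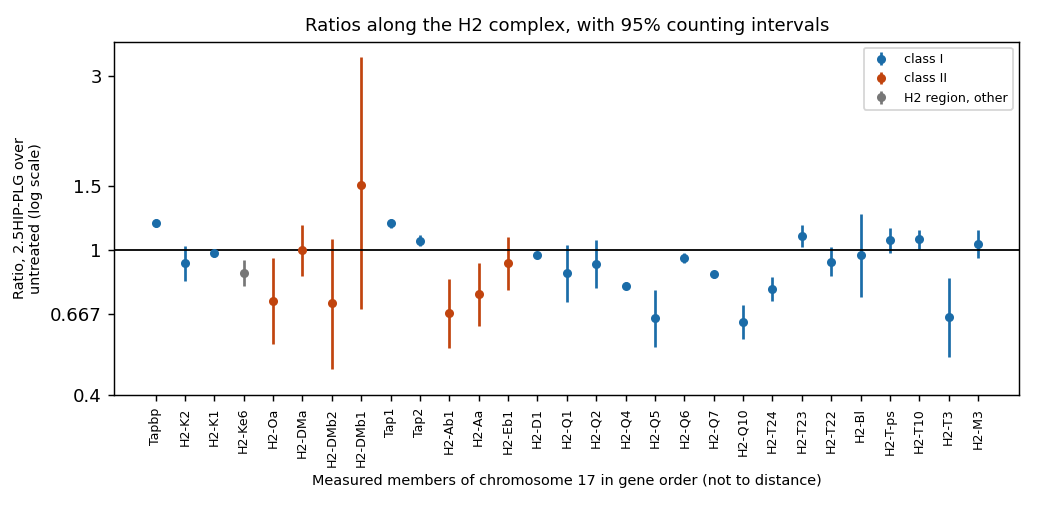
Ratio of scaled counts, 2.5HIP-PLG over untreated, on a log axis with 95% counting intervals for the 29 measured members on chromosome 17, placed in gene order and not to distance, with class I in blue, class II in red and H2-Ke6 in grey. Tap1 and Tap2 stand above 1 between class II genes, with H2-DMb1 above 1 and H2-Ab1 below 1 beside them, and the run from H2-Q1 to H2-T24 stands below 1.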

How the data were processed

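Sorted cells of each group gave 1 RNA-seq library. The submitters' processing notes name STAR, RSEM 1.3.1 and the build GRCm38. The annotation and strand setting used for this were not given in the sources used here. Expected counts were what the authors deposited, and in them RSEM splits reads that match several genes, with no scaling between libraries. In the 2.5HIP-PLG library 11.1% of rows were not whole, and in untreated cells 11.8%. Among members, 17 of 18 measured class I H2- rows were not whole.

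Counts were rounded and scaled by column total. Ratios and exact conditional binomial (Clopper-Pearson) 95% intervals were computed in Python 3.11.15 with scipy 1.17.1, numpy 2.4.6 and pandas 2.3.3. They were tested on simulated Poisson counts, which held neither differences between mice nor reads divided among genes. Log2 ratios had 0.5 counts added. Scaling alternatives used edgeR 4.0.16 and DESeq2 1.42.0 in R 4.3.3. Figures used matplotlib 3.10.9. GENCODE M21 (GRCm38), which holds 54409 of 54532 row IDs, gave positions, exon-union lengths and 50-base sharing on either strand. The enhancer A and ISRE cores searched in promoters were shortened by 1 letter after longer spellings, with which H2-T3 had 0 matches, had been searched. Every member with at least 20 counts was named, and in other lists the called genes and the most abundant ones; Batf3, Flt3, Cd209a, Clec9a, Csf1r, C1qa, Siglech, Sppl2a, Lgmn, Ctsl, Ifngr2 and Cd8a, and list members given without values, were named after their values were seen. A few list genes that the rule would name are not reported here. Members and lists were chosen with earlier results of these data known. No molecular identifiers are described, so reads may not be independent molecules.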

Additional observations from a re-analysis of the deposited data

How the results depend on the processing

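No paired analysis was possible because each group has 1 library, and no library could be left out. Of 72 recomputed class values 55 stayed within tolerance (the counting interval for ratios, 1.5 times for counts, and for a median the upper arm of the interval of the gene nearest it), and 0 results reversed a call. The class I sum ratio of 1.0005 was 1.0088 with TMM, 1.0096 with DESeq2 and 0.9896 with upper quartile scaling, 1.0133 without the most abundant row of each class, 1.049 over rows with whole counts and 0.9627 over H2- rows and B2m, so its side of 1 is not settled. Over H2- rows and B2m the class II ratio was 0.8717 of the class I ratio, and over whole-count rows and H2- rows with B2m the class I median log2 ratio was 0.0674 and -0.1064. Upper quartile scaling called 1 class II member, H2-Ab1 (0.664). At a ratio of 2, 0 class I members and 0 members in all were called, and at 1.2 there were 6 class I, 4 class II and 10 members, 9 lower and 1 higher. Over whole-count rows 1 member, of class I, was called, H2-T3, since H2-Q5 and H2-Q10 are then left out. The 3 called genes kept their calls in 25 of 28 recomputed values, and the 3 losses were at a ratio of 2. Settings that change only the count minimum, the size for a call or the rows kept leave these ratios and intervals as they were. Such outcomes were fixed in advance, so the 25 do not measure how firm the calls are. Likewise the 55 class values include the class II over class I ratio, which no scaling can change. With 1 library per group, differences between mice or preparations cannot be told apart from treatment, and class II rests on 2077 and 2952 counts.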

Other observations

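H2-Ke6, a gene of the H2 complex that encodes no MHC molecule, had 1031 counts in 2.5HIP-PLG cells and 1374 in untreated cells (0.865, 0.797 to 0.939). The overlapping Gm20427, which holds 70.5% of its 50-base stretches, had 149 and 237 counts, and the sum of both rows had a ratio of 0.845 (0.783 to 0.911). H2-M2, a class I heavy chain row below the count minimum, had 6 counts in 2.5HIP-PLG cells and 0 in untreated cells, and it was called higher where no minimum was set, which made 4 called members.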
